A study of Mus musculus with 8 samples.

Results

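The transcripts of 10 glycolysis enzymes were followed through sorted mouse blood stem cells: the hexokinases Hk1 and Hk2, glucose-6-phosphate isomerase (Gpi1), the phosphofructokinases Pfkl and Pfkp, aldolase A (Aldoa), Gapdh, phosphoglycerate kinase 1 (Pgk1), pyruvate kinase (Pkm) and lactate dehydrogenase A (Ldha). They were taken by symbol from the deposited tables, where all 10 were found among 24421 genes, and all 10 were among the 15917 genes with enough counts to be tested. The cells were the long-term fraction of haematopoietic stem cells (LT-HSCs), gated from bone marrow as Lin-CD117+Sca1+CD150hiCD48lo, which a Vwf-GFP reporter, shared by all 4 groups, divided into Vwf+ and Vwf- fractions. Each fraction came from wild-type (WT) mice and from mice labelled Dnmt3a+/- (Dnmt3a HET), all aged 10 to 12 months, so that there were 4 groups. Every group had 2 libraries of total RNA, replicate 1 from males and replicate 2 from females, each a pool of 3 to 4 mice in which single animals were not resolved. The labels do not describe the Dnmt3a allele and do not say whether the Vwf+ and Vwf- libraries of one sex and genotype came from the same mice.

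Glycolysis splits glucose into pyruvate in the cytosol and yields ATP without oxygen. Hexokinases trap glucose as glucose-6-phosphate, phosphofructokinase makes the committed step to fructose-1,6-bisphosphate, and lactate dehydrogenase turns pyruvate to lactate while it restores the NAD+ that Gapdh consumes. Several steps are catalysed by isozymes from separate genes, which differ in tissue distribution and regulation. LT-HSCs lie mostly quiescent in a bone marrow niche low in oxygen and are known for reliance on glycolysis, and Hif1a and Myc are transcription factors known to act on glycolytic genes. Vwf-expressing LT-HSCs are known as a platelet-biased subset, and Dnmt3a encodes a DNA methyltransferase that is often mutated in human clonal haematopoiesis.

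The libraries held 21809278 to 39402418 counts, and the 10 enzymes together took 0.225% to 0.34% of them, or 59370 to 107027 counts. Vwf was at 1034 to 1409 CPM (the count relative to the library size after TMM scaling) in the 4 Vwf+ libraries and at 98.9 to 116 CPM in the 4 Vwf- libraries, which separates the fractions as labelled. Of the other sort markers, Kit (CD117) was at 815 to 1033 CPM, Ly6a (Sca1) at 17.5 to 41.5 CPM, Cd48 at 0.0861 to 3.19 CPM, and Slamf1 (CD150) at 75.6 to 87.1 CPM in Vwf+ and 20.1 to 26.6 CPM in Vwf- libraries. Dnmt3a itself was not lower in the libraries labelled Dnmt3a+/-. In Vwf+ cells it was at 179 and 279 CPM in the male and female Dnmt3a+/- pools and at 175 and 203 CPM in the WT pools, and in Vwf- cells at 361 and 275 against 251 and 202 CPM. The log2 difference between genotypes was 0.38 ± 0.16 (SE), adjusted p = 1. Without a description of the allele, a count over the whole gene does not check the genotype, and the groups are used below as labelled. The Vwf- Dnmt3a+/- male library stood apart: it was the lowest of the 8 for all 10 enzymes, had the largest total count, the highest share of the nuclear RNA Malat1 (1.97%, against 0.446% to 1.31% elsewhere) and the lowest share of Rn45s, the ribosomal RNA precursor (6.08%, against 7.31% to 11.9%). For the 10 enzymes, the main Vwf, genotype and sex results are given with and without it. Values without this library in particular are not given for the pathway and marker lists.

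The promoters of 3 genes are shown because Hk2, Pfkp and Ldha are the enzymes that differed most between the Vwf fractions. The sequences are the 250 bases before the RefSeq transcription start on GRCm38.p6, read 5′ to 3′ on the gene's strand, at chr6:82774455-82774704 (minus strand) for Hk2, chr13:6648772-6649021 (minus strand) for Pfkp and chr7:46845554-46845803 (plus strand) for the first of the Ldha starts. Capitals mark ACGTG on either strand, which is CACGT on the other strand. ACGTG is a form of the core of the motif read by hypoxia-inducible factors. The other form, GCGTG, was neither marked nor counted. CACGTG, the E-box read by Myc and related factors, contains ACGTG on both strands.
Hk2: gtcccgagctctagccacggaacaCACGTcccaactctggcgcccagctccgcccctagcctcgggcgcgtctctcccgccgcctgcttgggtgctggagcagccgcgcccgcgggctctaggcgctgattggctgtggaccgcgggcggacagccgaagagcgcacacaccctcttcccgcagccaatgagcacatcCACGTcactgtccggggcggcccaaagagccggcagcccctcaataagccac
Pfkp: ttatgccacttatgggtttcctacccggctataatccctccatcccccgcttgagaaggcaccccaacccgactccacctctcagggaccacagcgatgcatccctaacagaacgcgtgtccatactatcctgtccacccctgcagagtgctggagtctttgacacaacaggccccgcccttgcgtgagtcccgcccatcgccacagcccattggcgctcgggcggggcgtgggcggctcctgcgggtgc
Ldha: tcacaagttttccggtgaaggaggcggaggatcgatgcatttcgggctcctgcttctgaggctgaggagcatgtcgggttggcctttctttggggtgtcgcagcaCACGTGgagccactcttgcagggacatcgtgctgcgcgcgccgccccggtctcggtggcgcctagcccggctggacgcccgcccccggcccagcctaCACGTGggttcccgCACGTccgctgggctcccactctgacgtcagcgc
The Ldha window held 5 matches to ACGTG counted over both strands, of which the 2 copies of CACGTG gave 4. The Hk2 window held 2 matches and no CACGTG. Neither ACGTG nor CACGTG occurred in the Pfkp window, which does hold the letters GCGTG. Over the 250-base windows of all RefSeq starts, 5 of the 10 enzymes had ACGTG in at least one (Hk2, Aldoa, Pgk1, Pkm and Ldha), against 18.5% of 27025 gene symbols. CACGTG was found for 1 of the 10 (Ldha), against 6.86% of symbols. The enzymes have 15 entries in the table, so that a gene with several starts had more chances of a match, and a match is a description of the letters and not a bound site.

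On the TPM scale, which divides by transcript length and so allows genes to be compared, the levels spanned from Gapdh, the enzyme that oxidises glyceraldehyde-3-phosphate, with a mean of 590 TPM over 8 libraries, to Pfkp with 38.9 TPM. Gapdh ranked number 156 of all 24421 genes and Pfkp number 4325. Pkm (546 TPM) and Ldha (450 TPM), the enzymes that make pyruvate and lactate, came next, followed by Aldoa (375), Gpi1 (249), Hk1 (165), Pgk1 (135), Pfkl (68.5) and Hk2 (47.1 TPM). Most neighbours in this order kept it in 8 of 8 libraries. The exceptions were Gapdh over Pkm and Pkm over Ldha, which held in 7 of 8, and Hk2 over Pfkp, which held in 6 of 8. The order of these neighbours was thus not the same in every library, and their differences were not tested. The 10 enzymes summed to between 1936 TPM in the Vwf- Dnmt3a+/- male library and 3043 TPM in the Vwf- WT female library. The highest library depends on the scale. In CPM the sum ran from 2117 in the same male library to 3504 in the Vwf+ WT female library, with 3213 in the Vwf- WT female library.

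Isozyme shares were described without a test, and those of Hk2 and Pfkp separated the fractions. How often shares of other genes separate in this way was not computed. These shares use the same Hk2 and Pfkp transcripts as the comparison of levels below and are not separate evidence. Hk2, an insulin- and growth-responsive hexokinase that can bind mitochondria, made up 21.9% to 25.3% of the summed TPM of Hk1, Hk2 and Hk3 in the 4 Vwf+ libraries and 14.3% to 16.9% in the 4 Vwf- libraries. The groups do not overlap, and Hk1, the widely expressed isozyme, remained the main hexokinase transcript in each library with 60.8% to 77.4%. The share of Hk3 varied widely, from 7.26% to 15.3% in Vwf+ and from 8.07% to 17% in Vwf- libraries. Pfkp, the platelet-type phosphofructokinase, made up 25.6% to 34.5% of the summed TPM of Pfkl, Pfkp and Pfkm in Vwf+ cells and 17.4% to 22.8% in Vwf- cells, again without overlap. The Vwf+ WT female library was the highest with 34.5%, and it also had the lowest share of the muscle-type Pfkm (23.2%). Ldha, the muscle-type lactate dehydrogenase, held 78.6% to 81.3% of the summed TPM of Ldha and Ldhb in Vwf+ cells and 76.6% to 79.2% in Vwf- cells, and these ranges overlap. Aldoa took 94.7% to 97.1% of Aldoa plus Aldoc in the 8 libraries. Hkdc1, a further hexokinase gene, did not exceed 0.0958 TPM.

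**Figure D1:**
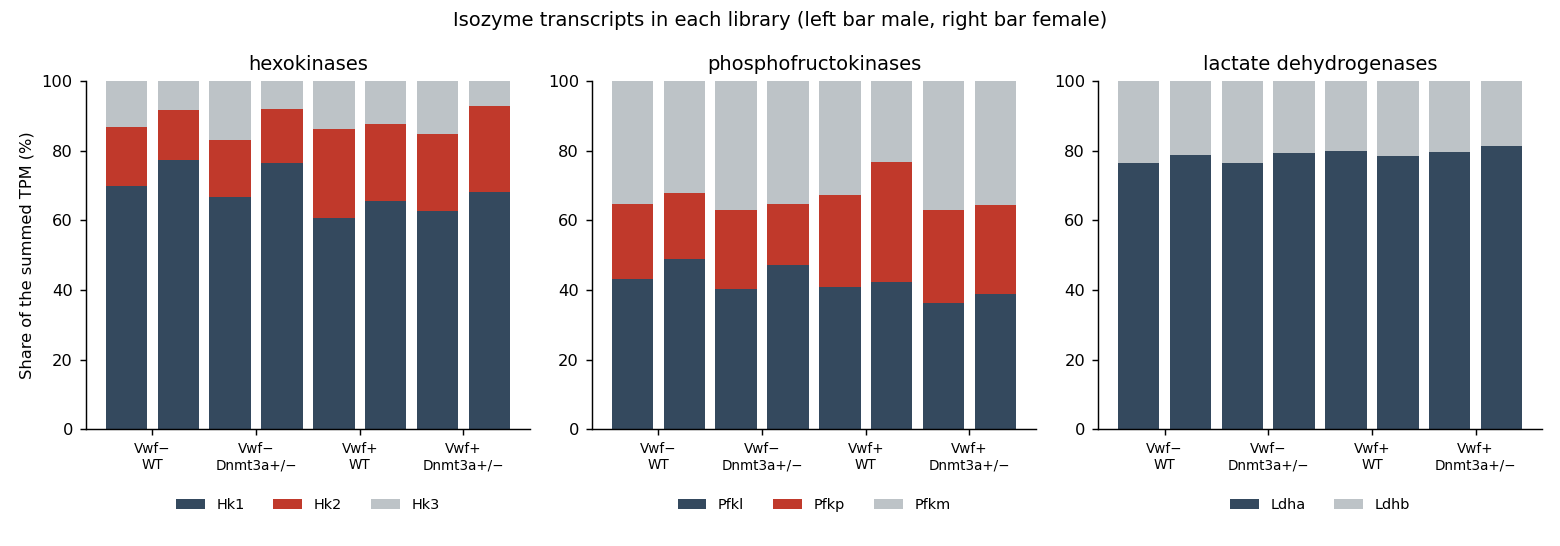
Stacked bars show the share of the summed TPM (%) taken by each hexokinase, phosphofructokinase and lactate dehydrogenase transcript in each of the 8 libraries, with the male pool left and the female pool right in each group. The Hk2 segment is larger in every Vwf+ bar (21.9% to 25.3%) than in any Vwf- bar (14.3% to 16.9%), and the Pfkp segment likewise (25.6% to 34.5% against 17.4% to 22.8%).

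The first comparison asked how Vwf+ and Vwf- LT-HSCs differ, averaged over genotype. Hk2 and Pfkp were higher in Vwf+ cells, Ldha had a positive difference that missed the threshold, and the other 7 enzymes did not pass it. Differences were tested with edgeR's quasi-likelihood test over all 15917 genes, and adjusted p is the Benjamini-Hochberg value with a threshold of 0.05. Of the 10 enzymes, 2 passed, both higher, against 5.44% of all tested genes in either direction and 3.76% in the higher direction. The median log2 difference of the 10 was 0.05, with a range of -0.18 to 0.71, and 6 of 10 were positive. The median over all tested genes was -0.01. In bulk RNA, a larger share of cells that express a gene and more of its RNA per cell cannot be told apart.

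At the hexokinase step, Hk2 in Vwf+ cells was at 165 and 155 CPM in the WT male and female pools and at 115 and 181 CPM in the Dnmt3a+/- male and female pools. The Vwf- pools in the same order held 91.3, 106, 74.4 and 104 CPM. Each Vwf+ library was thus above each Vwf- library, and within each of the 4 pairs of the same genotype and sex the log2 difference lay between 0.54 and 0.85. The fitted difference was 0.71 ± 0.16 (SE; 95% interval 0.35 to 1.07), a 1.64-fold higher level, adjusted p = 0.031. Hk1 ranged from 270 to 410 CPM in Vwf+ libraries (WT male 323, WT female 378, Dnmt3a+/- male 270, Dnmt3a+/- female 410) and from 250 to 470 CPM in Vwf- libraries (309, 470, 250 and 425 in the same order). The groups overlap throughout, and its difference was -0.07 ± 0.21 with an interval of -0.54 to 0.40. Gpi1, which isomerises the hexokinase product, was at 340, 372, 277 and 387 CPM in Vwf+ and 336, 375, 248 and 407 CPM in Vwf- libraries, with a difference of 0.01 (interval -0.38 to 0.39).

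At the phosphofructokinase step, Pfkp in the Vwf+ WT male, WT female, Dnmt3a+/- male and Dnmt3a+/- female pools was at 81.1, 126, 77.1 and 93.1 CPM. The Vwf- pools held 64.8, 65.1, 58.2 and 60.9 CPM and lay within a narrow band below all of these. The log2 difference was 0.60 ± 0.14 (interval 0.28 to 0.91), a 1.51-fold higher level, adjusted p = 0.038, and the 4 pairs gave 0.32 to 0.96 with the WT female pair highest. Pfkl, the liver-type isozyme, did not move with Pfkp: it was at 112, 138, 92.7 and 125 CPM in Vwf+ and 116, 149, 91.5 and 147 CPM in Vwf- libraries. Its difference was -0.11 (interval -0.49 to 0.27). Aldoa, the next enzyme, had 374, 407, 304 and 316 CPM in Vwf+ and 334, 329, 252 and 300 CPM in Vwf- libraries. All 4 pairs were positive, from 0.08 to 0.31, and the difference of 0.20 ± 0.11 did not pass (adjusted p = 0.43).

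In the later steps of the pathway, Gapdh was at 414, 451, 337 and 447 CPM in Vwf+ and 407, 496, 292 and 520 CPM in Vwf- libraries, and Pgk1, which makes the first ATP, at 110, 127, 95.7 and 110 against 124, 137, 90.6 and 148 CPM. Their differences were -0.06 (interval -0.47 to 0.36) and -0.18 (interval -0.51 to 0.16). Pkm, the last ATP-yielding step, had 706, 797, 574 and 725 CPM in Vwf+ and 677, 724, 478 and 742 CPM in Vwf- libraries, a difference of 0.10 (interval -0.27 to 0.46). The Vwf+ and Vwf- libraries overlap for these 3 genes. Ldha was at 473, 555, 460 and 450 CPM in the Vwf+ and at 358, 361, 284 and 389 CPM in the Vwf- pools, with no overlap. The difference was 0.48 ± 0.13 (interval 0.18 to 0.78), 1.39-fold, adjusted p = 0.076. With the replicate number as a block in the model its adjusted p was 0.0028, and 3 of 10 enzymes then passed, against 13.4% of all genes. DESeq2 also called 3 of 10 (Ldha adjusted p = 0.0097), against 8.59% of the genes it tested. Counted without a test, Hk2, Pfkp and Ldha were the 3 of 10 enzymes for which every Vwf+ library exceeded every Vwf- library, against 7.71% of all tested genes, and 0 of 10 were wholly lower, against 5.33%.

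The calls for Hk2 and Pfkp sat near the threshold. Hk2 lost its call without the Vwf+ Dnmt3a+/- female (adjusted p = 0.072), Vwf+ WT male (0.11), Vwf+ WT female (0.085), Vwf- WT male (0.098) or Vwf- WT female (0.058) library, and Pfkp without the Vwf+ Dnmt3a+/- female (0.1), Vwf+ WT female (0.14), Vwf- WT male (0.097) or Vwf- WT female (0.12) library, while the log2 differences stayed between 0.53 and 0.86 for Hk2 and between 0.42 and 0.73 for Pfkp. Without the Vwf- Dnmt3a+/- male library that stood apart, Hk2 was at 0.60 (adjusted p = 0.029), Pfkp at 0.58 (0.032) and Ldha at 0.37 (0.11), and the median of the 10 was -0.10.

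**Figure D2:**
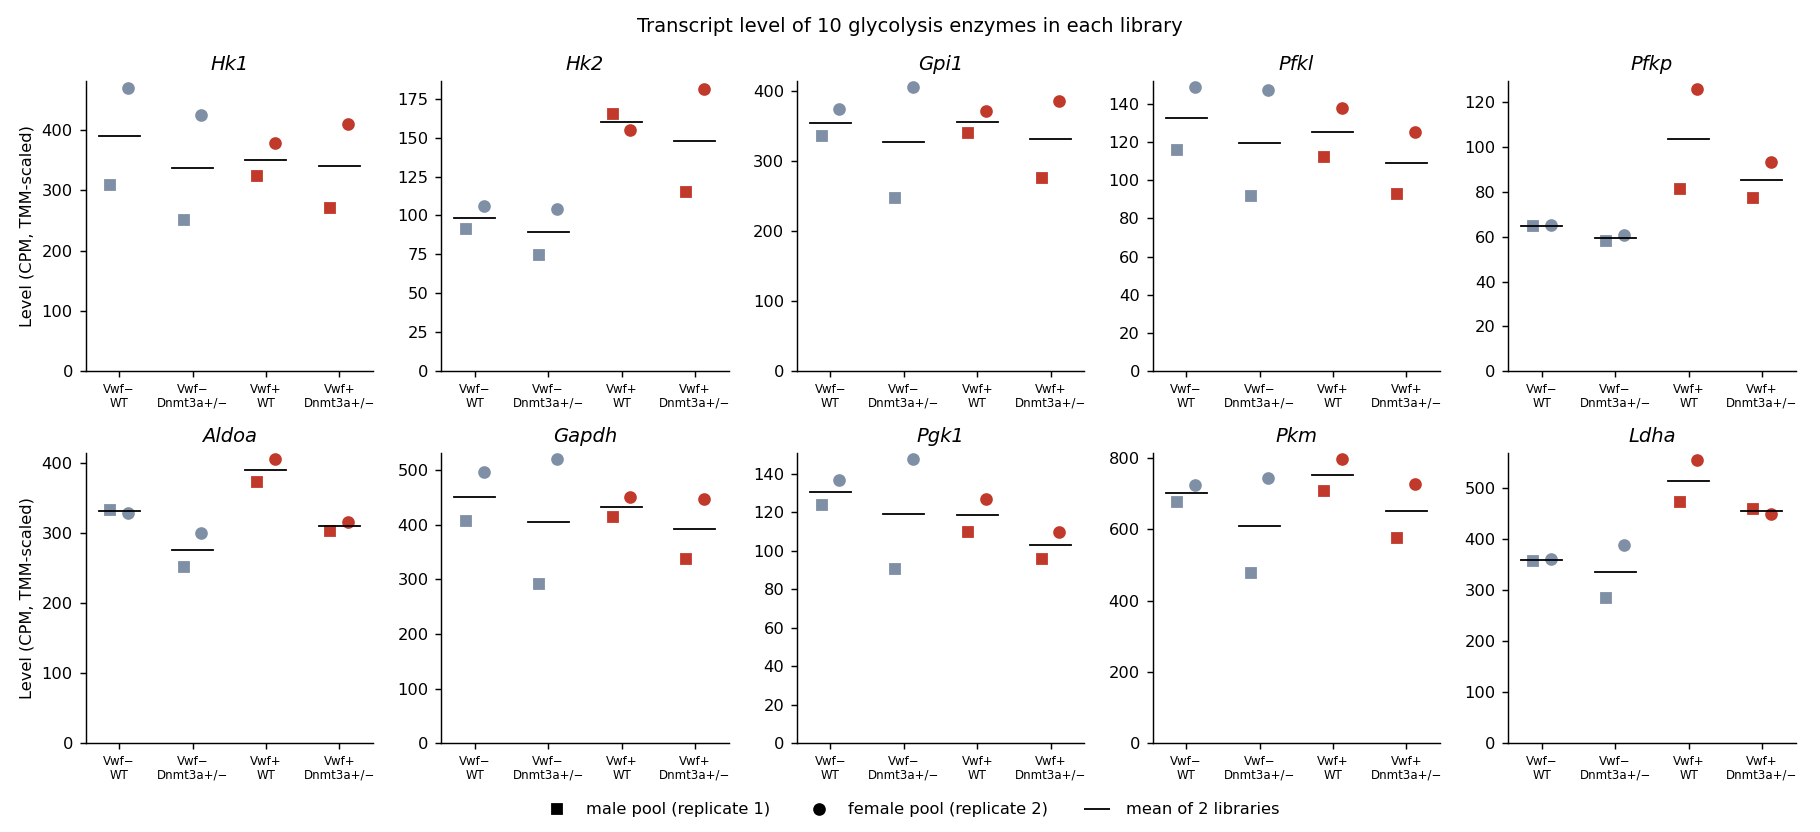
Each panel gives the level of one enzyme (CPM, TMM-scaled, axis from 0) in the 8 libraries, with squares for male pools, circles for female pools, grey-blue for Vwf- and red for Vwf+, and a line at the mean of the 2 libraries of a group. The red and grey-blue points separate for Hk2, Pfkp and Ldha and overlap for the other 7 enzymes.

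**Figure D3:**
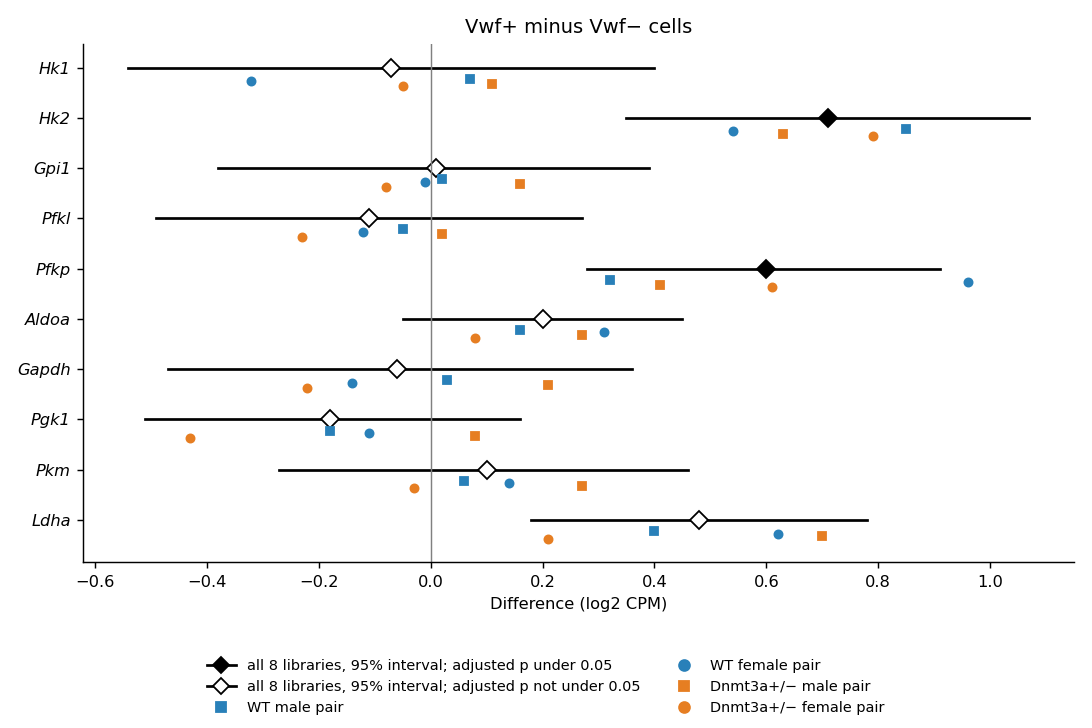
Diamonds show the fitted log2 difference Vwf+ minus Vwf- with its 95% interval for each enzyme, filled where adjusted p was under 0.05, and small symbols show the difference within each pair of the same genotype and sex. Hk2 (0.71) and Pfkp (0.60) are filled, and all 4 pairs lie right of 0 for Hk2, Pfkp, Aldoa and Ldha.

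Some markers of other cells also moved with the Vwf fractions. The 9 megakaryocyte and platelet markers summed to 1053 to 1232 CPM in Vwf+ and 662 to 743 CPM in Vwf- libraries, and 3 of 8 tested were called higher. Endothelial and stromal markers (11 genes) summed to 271 to 330 against 160 to 214 CPM with 4 of 11 called higher, and neutrophil markers (10 genes) to 143 to 250 against 77 to 132 CPM with 2 of 10 called higher. These sums do not speak for every gene in a list. Pdgfrb of the stromal list was negative in all 4 pairs of the same genotype and sex. Of the neutrophil list, Prtn3 and Elane were positive in all 4 pairs, but S100a8, S100a9 and Ngp in only 1 each. The 9 monocyte and macrophage markers summed to 231 to 244 against 163 to 215 CPM with 0 of 9 called. The erythroid list summed to 19.4 to 29 against 22.8 to 43.6 CPM, with Hba-a1, Hba-a2, Hbb-bs and Hbb-bt listed at 0 in all libraries, where reads of near-identical copies may not be counted. B cell markers summed to 12.9 to 19 against 12.2 to 16.3 CPM, and T and NK cell markers to 3.14 to 4.78 against 9.6 to 11.7 CPM with 1 called lower. Cell division markers had negative differences for 16 of 16 genes, with a median of -0.63 and 1 called lower, and 16 called lower with the replicate block. The part of any of these in the Hk2, Pfkp and Ldha differences was not tested.

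Within each genotype Hk2, Pfkp and Ldha had positive differences, and no enzyme passed edgeR's test. In WT cells, 0 of 10 were called, against 1.97% of all genes. At an unadjusted p under 0.05 there were 3 of 10, against 12.4% of all genes. The log2 differences were 0.69 for Hk2 (adjusted p = 0.21), 0.67 for Pfkp (0.16) and 0.52 for Ldha (0.28). With the replicate block these 3 passed (0.0052, 0.0081 and 0.036), against 8.35% of all genes. In cells labelled Dnmt3a+/-, 0 of 10 were called, against 1.06% of all genes, and 3 of 10 had an unadjusted p under 0.05, against 9.02% of all genes. The differences were 0.73 for Hk2 (adjusted p = 0.25), 0.52 for Pfkp (0.43) and 0.44 for Ldha (0.53). With the block Hk2 passed (0.0072), and Pfkp (0.058) and Ldha (0.096) did not, against 5.37% of all genes. DESeq2 called 0 of 10 in each genotype, against 5.2% of the genes it tested in WT and 3.3% in Dnmt3a+/- cells. The WT and Dnmt3a+/- comparisons have separate libraries but share 1 estimate of the spread. The interaction, which tests whether the Vwf difference depends on genotype, gave values of -0.16 (Pfkp) to 0.16 (Hk1) for the 10 enzymes, each with adjusted p = 1, and 0% of all genes were called. For Hk2 the interval of the interaction ran from -0.68 to 0.75 and for Pfkp from -0.79 to 0.47, so that these data do not resolve a difference of the size of the Vwf effect itself.

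The second comparison set Dnmt3a+/- against WT cells. No enzyme passed, and the levels were slightly lower in the libraries labelled Dnmt3a+/- for 10 of 10, with a median log2 difference of -0.16 against 0.01 over all tested genes. edgeR called 0% of the 15917 genes, while 516 had an unadjusted p under 0.05. DESeq2 called 15 (0.0856% of the genes it tested) and edgeR with the replicate block 30 (0.188%), with 0 of the 10 enzymes among them in either case. Aldoa had the largest difference: its mean was 293 CPM in the 4 Dnmt3a+/- and 361 CPM in the 4 WT libraries, a log2 difference of -0.30 ± 0.11 (interval -0.55 to -0.05), unadjusted p = 0.024 and adjusted p = 1. It was also the 1 enzyme of 10 for which every Dnmt3a+/- library lay below every WT library, against 0.848% of all tested genes, and 0 of 10 lay wholly above, against 1.24%. In Vwf+ cells the 10 differences lay between -0.33 and -0.05 and in Vwf- cells between -0.27 and -0.09, with 0 of 10 and 0% of all genes called in each fraction, and 363 and 211 genes at an unadjusted p under 0.05.

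Several of these directions turned with the processing or with 1 library. In Vwf+ cells, limma on log2(TPM + 1) gave -0.19 to 0.07, with Hk1 (0.07) and Gpi1 (0.02) positive, and leaving out 1 library moved Hk1 between -0.38 and 0.23, Hk2 between -0.47 and 0.18 and Pfkp between -0.56 and 0.07. Averaged over the fractions, leaving out 1 library brought Hk1 to at most 0.04, Hk2 to 0.01, Gpi1 to 0.05 and Gapdh to 0.03, while Aldoa stayed between -0.37 and -0.24. Without the Vwf- Dnmt3a+/- male library, the median of the 10 enzymes was -0.02 averaged over the fractions and 0.11 within Vwf- cells, against -0.15 there with all libraries. Without the female library of that group it was -0.36 and -0.53. In the male pools, all 10 enzymes had lower means in Dnmt3a+/- than in WT cells, by -0.11 for Pfkp to -0.41 for Hk2. In the female pools the values ran from -0.27 for Pfkp and -0.25 for Aldoa to 0.10 for Hk2. A fit with genotype by sex, added after these values were seen and left with 2 residual degrees of freedom, called 0 of 10 enzymes and 0.383% of all genes. The female minus male difference of the genotype effect was 0.51 ± 0.19 for Hk2 (unadjusted p = 0.0093, adjusted p = 0.35), 0.45 for Gpi1 (0.44) and 0.42 for Gapdh (0.53), with adjusted p in brackets, and its median was 0.27 for the enzymes and -0.01 for all genes.

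The comparison of female with male pools took the 4 group means and a term for sex. Hk1, Pfkl, Gapdh and Gpi1 were higher in the female pools, and all 10 enzymes had positive differences. The 4 of 10 called compare with 10.5% of all genes in either direction and 5.62% in the higher direction, and the median log2 difference was 0.32 for the enzymes and -0.02 for all tested genes. Hk1 had a mean of 421 CPM in the 4 female and 288 CPM in the 4 male libraries, with a difference of 0.55 ± 0.10 (interval 0.33 to 0.77), 1.46-fold, adjusted p = 0.0024. Pfkl was higher by 0.45 (adjusted p = 0.006), Gapdh by 0.41 (0.024) and Gpi1 by 0.37 (0.034). Each of the 4 was positive in all 4 groups, with the Vwf- Dnmt3a+/- pair the largest.

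The rest did not pass. Pgk1, which lies on the X chromosome, was at 0.31 (adjusted p = 0.062), Pkm at 0.31 and Hk2 at 0.32 (0.074 each), Pfkp at 0.25 (0.16), Ldha at 0.17 (0.35) and Aldoa at 0.10 (0.55). DESeq2 called 7 of 10, adding Hk2, Pgk1 and Pkm, against 15.1% of the 13112 genes to which it gave an adjusted p. Counted without a test, every female library exceeded every male library for 5 of 10 enzymes (Hk1, Gpi1, Pfkl, Gapdh and Pkm), against 5.35% of all tested genes, and 0 of 10 were wholly lower in females, against 5.91%.

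Replicate number and sex coincide in this design, so that sex and anything else in which replicate 1 differed from replicate 2 cannot be told apart. The share of Malat1 was 0.446% to 0.585% in the female and 0.974% to 1.97% in the male libraries. Cell division markers were called higher in female pools for 14 of 16 genes, against 5.62% of all tested genes in that direction. The median of the 16 was 0.77, and Mki67, a marker of cycling cells, was at 368 to 1060 against 245 to 472 CPM. Pcna (0.30, adjusted p = 0.07) and Tyms (0.20, 0.23) were also positive but did not pass. Procr (CD201), a marker of the most primitive cells, was lower in female pools (72.3 against 126 CPM, -0.88, adjusted p = 8.8e-05). Of the 11 endothelial and stromal markers, Col1a2 (1.00, adjusted p = 0.00075) and Pdgfrb (0.58, 0.017) were higher and Kdr (-0.43, 0.049) was lower in female pools, and the list summed to 213 to 330 CPM in female and 160 to 300 CPM in male libraries. Their part in the enzyme differences was not tested. Without the Vwf- Dnmt3a+/- male library, Hk1 (0.47, adjusted p = 0.009) and Pfkl (0.36, adjusted p = 0.05 after rounding) stayed under the threshold, and Gpi1 (0.25, 0.26) and Gapdh (0.26, 0.21) did not. Gpi1 and Gapdh also lost the call without the Vwf- Dnmt3a+/- female (0.25 and 0.21), the Vwf+ Dnmt3a+/- male (0.16 and 0.062) or the Vwf+ Dnmt3a+/- female library (0.17 and 0.076). Without the Vwf+ WT male or the Vwf+ WT female library, Hk2, Pgk1 and Pkm passed as well, which made 7 of 10.

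**Figure D4:**
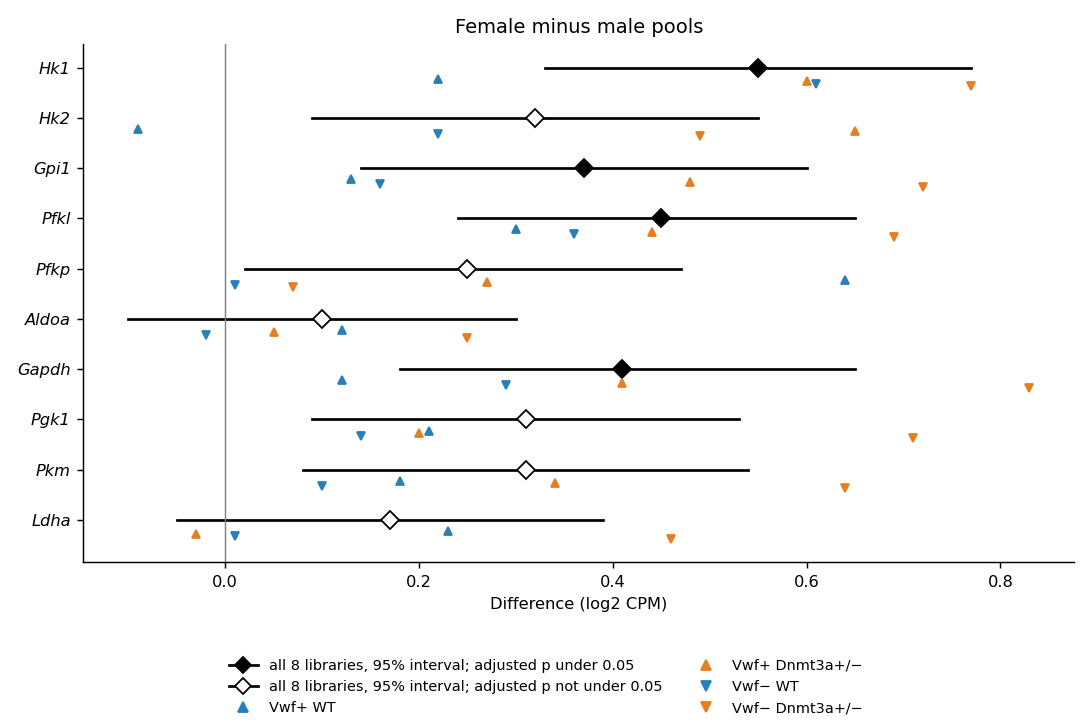
Diamonds show the fitted log2 difference female minus male with its 95% interval for each enzyme, filled where adjusted p was under 0.05, and triangles show the female minus male difference within each of the 4 groups. Hk1, Gpi1, Pfkl and Gapdh are filled, and the Vwf- Dnmt3a+/- pair (downward orange triangle) is the rightmost for 8 of the 10 enzymes.

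The rest of the pathway was read from lists of 86 further genes. Beside the counts below, 5.44% of all tested genes passed between the Vwf fractions, and 3.76% in the higher direction. Between the sexes these shares were 10.5% and 5.62%. Of 17 other glycolytic enzymes tested, 0 passed between Vwf+ and Vwf- cells, with a median log2 difference of 0.04. The smallest p-values were those of Aldoc, aldolase C (24.8 against 17.1 CPM, 0.50, adjusted p = 0.15), Eno2, the neuronal enolase (13.1 against 7.6 CPM, 0.81, 0.19), and Ldhb (83.2 against 66.9 CPM, 0.31, 0.2). With the replicate block Aldoc (0.017) and Eno2 (0.0034) passed. Of 8 genes for glucose and lactate transport 0 passed. The glucose transporters Slc2a1 (52.8 against 44.5 CPM, 0.24) and Slc2a3 (151 against 133 CPM, 0.18) had adjusted p of 0.32 and 0.39, and the monocarboxylate transporter Slc16a7 (-0.59) one of 0.24.

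Among 6 tested regulators of fructose bisphosphate, 1 was higher and 1 lower in Vwf+ cells. Pfkfb3, which makes the fructose-2,6-bisphosphate that activates phosphofructokinase, was at 99.2, 80.6, 81.7 and 97.5 CPM in the Vwf+ WT male, WT female, Dnmt3a+/- male and Dnmt3a+/- female pools and at 63, 60.3, 60.2 and 66.3 CPM in the Vwf- pools. The difference was 0.52 ± 0.11, adjusted p = 0.023. Fbp1, the gluconeogenic enzyme that reverses the phosphofructokinase step, was lower in Vwf+ cells, at 1.66, 1.85, 1.93 and 3.48 CPM against 7.29, 4.5, 6.28 and 4.82 CPM (-1.39 ± 0.31, adjusted p = 0.029). Neither gene's Vwf+ and Vwf- libraries overlap, and the next by p was Pfkfb1 (0.57, adjusted p = 0.55). Without 1 library the adjusted p reached up to 0.13 for Pfkfb3 and 0.12 for Fbp1, with directions kept.

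Of 13 genes for the entry of pyruvate into mitochondria, 0 passed. Pdp1, a pyruvate dehydrogenase phosphatase, was at 0.41 (adjusted p = 0.12, and 0.011 with the replicate block), Pdk1, a kinase that inhibits the enzyme, at -0.28 (0.15), and Pdhx, a subunit of the complex, at -0.36 (0.24). Of 11 genes of the pentose phosphate and serine branches, 1 passed, with a list median of -0.19. Phgdh, the first enzyme of serine synthesis from a glycolytic intermediate, was at 123, 134, 109 and 99 CPM in Vwf+ and 188, 175, 152 and 195 CPM in Vwf- pools, a log2 difference of -0.61 ± 0.11, adjusted p = 0.011. Psat1, the next enzyme of that branch (-0.24, adjusted p = 0.35), and Taldo1, transaldolase (-0.32, 0.37), did not pass.

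Of 14 hypoxia and Myc regulators, 3 were higher and 1 was lower in Vwf+ cells. Hif1a did not pass. Its log2 differences were -0.05 and -0.11 in the WT male and female pairs and 0.29 and -0.08 in the Dnmt3a+/- pairs. Epas1, which encodes HIF-2 alpha, was at 30, 23.9, 24.6 and 31 CPM in Vwf+ and 5.48, 5.7, 5.75 and 6.51 CPM in Vwf- pools, 4.67-fold (2.22 ± 0.16, adjusted p = 6.9e-05), and Hif3a was higher by 0.67 ± 0.14 (adjusted p = 0.023). Mycn was at 588, 608, 480 and 489 CPM against 278, 249, 222 and 235 CPM (1.13 ± 0.11, adjusted p = 0.00034), and Myc at 170, 177, 140 and 194 CPM against 295, 368, 244 and 350 CPM (-0.88 ± 0.16, adjusted p = 0.0092). These 2 Myc family genes thus differed in opposite directions. Of 11 hypoxia targets outside glycolysis, Ndrg1 passed and was lower in Vwf+ cells (140 against 206 CPM, -0.56 ± 0.13, adjusted p = 0.033), while Car9 (-0.59, 0.16) and Ddit4 (0.39, 0.19) did not pass. When 1 library was left out, Epas1, Mycn and Myc stayed under the threshold with adjusted p of at most 0.00043, 0.0033 and 0.046, and Phgdh, Hif3a and Ndrg1 reached 0.056, 0.098 and 0.12.

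Between the sexes, Tpi1, the triose isomerase next to aldolase, was higher in female pools (133 against 99.5 CPM, 0.44, adjusted p = 0.019), and Gapdhs, the sperm isozyme of Gapdh (8.85 against 14.6 CPM, -0.73, 0.035) and Eno2 (8.18 against 12.6 CPM, -0.71, 0.027) were lower, which made 1 of 17 other glycolytic enzymes higher and 2 lower. In the pentose phosphate and serine branches 4 of 11 were higher: Tkt, transketolase (431 against 299 CPM, 0.54, adjusted p = 0.0066), Taldo1 (0.42, 0.0074), Rpia (0.45, 0.014) and Pgls (0.32, 0.045). The lactate transporter Slc16a1 was higher by 0.51 (adjusted p = 0.0054) and Myc by 0.34 (0.034), and P4ha1, a hypoxia-responsive collagen prolyl hydroxylase, was lower (-0.43, 0.0082). None of these genes passed in limma on log2(TPM + 1), with adjusted p from 0.092 (Taldo1) to 0.22 (Myc). The Vwf- Dnmt3a+/- pair gave the largest difference for most of them, such as Tpi1 (0.94), Tkt (1.03), Gapdhs (-1.66) and Eno2 (-1.39), but not for Pgls or P4ha1. Leaving out 1 library kept the directions, with Tpi1 between 0.26 and 0.56 and Gapdhs between -1.01 and -0.42, but not every call held. No gene of the lists for fructose bisphosphate regulation (6 tested) or pyruvate entry (13 tested) passed edgeR's threshold, and 1 and 3 of them had an unadjusted p under 0.05.

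**Figure D5:**
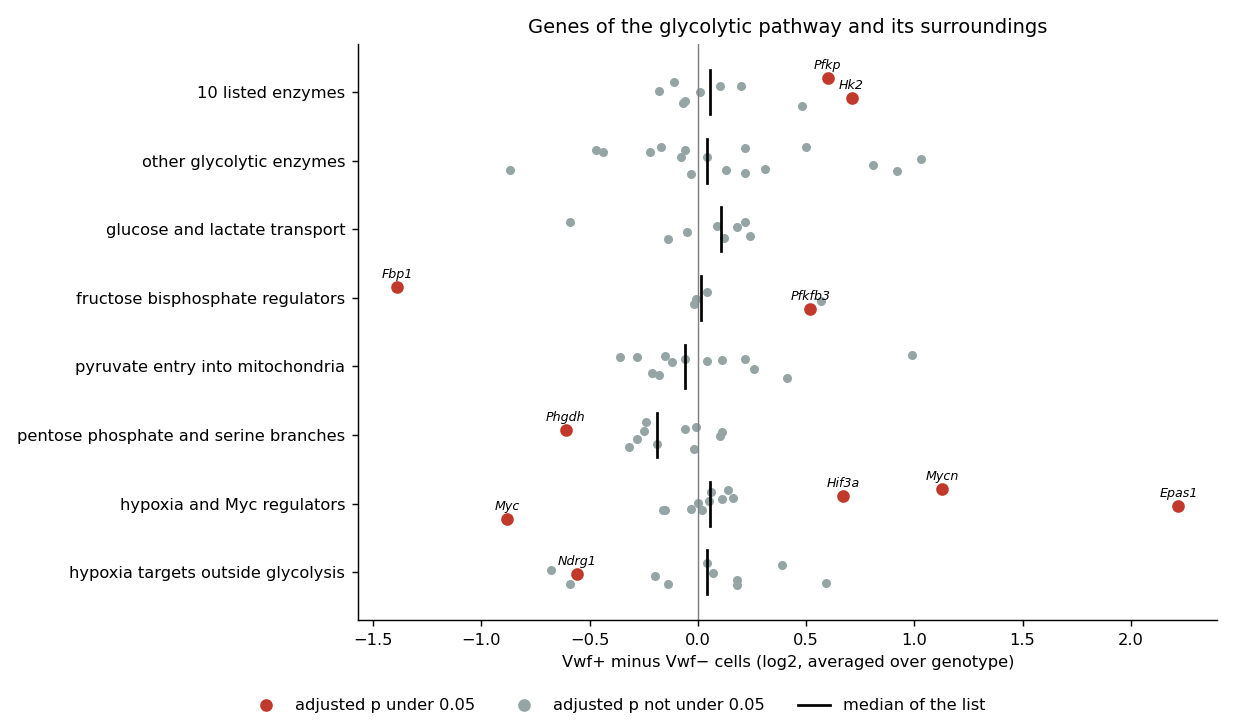
Each point is one tested gene of a list, placed by its log2 difference Vwf+ minus Vwf- averaged over genotype, with red for adjusted p under 0.05 and a line at the median of the list. The named red points are Hk2, Pfkp, Pfkfb3, Fbp1, Phgdh, Epas1, Hif3a, Mycn, Myc and Ndrg1, and the list medians lie between -0.19 and 0.11.

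The mean profile of the 10 enzymes over the 8 libraries, as log2 CPM centred on each gene, ran from -0.46 in the Vwf- Dnmt3a+/- male library to 0.28 in the Vwf+ WT female library. Of 10061 genes outside the lists with a mean log2 CPM above 3, the nearest to this profile by root mean square difference were Atxn10 (0.038), Rpl4 (0.050), Chmp4b (0.051), Rpl28 (0.058) and Impdh2 (0.059). The profile of Atxn10 ran from -0.43 to 0.31 in the same 2 libraries.

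How well reads can be assigned differed between the enzymes. Windows of 75 bases were taken along the longest protein-coding transcript of each gene (GENCODE M21). For Gapdh, 80.3% of them occur also in other annotated genes, of which there are 118. The shared part was 67.5% for Pgk1, 19.6% for Pkm, 9.96% for Gpi1, 5.23% for Ldha and 1.49% for Aldoa. No shared window was found for Hk1, Hk2, Pfkl or Pfkp. The levels of Gapdh and Pgk1 are uncertain in this respect. Eno1, the main enolase, shares 65.4% of its windows and had no count in 7 of the 8 libraries, so that this step could not be described. Hk2 lies at chr6:82725025-82774454 and Pfkp at chr13:6579768-6648777 (GRCm38, both on the minus strand). Pfkp overlaps Pitrm1 on the opposite strand, and the strand setting of the counting is not given in the sources used here. Pitrm1 had 2574 to 5374 counts and a Vwf difference of -0.22 (adjusted p = 0.33). Gapdh overlaps Iffo1 in the same manner (570 to 2171 counts), which was lower in female pools (-0.38, adjusted p = 0.049). How reads in these overlaps were assigned was not tested. In GENCODE M21, 2 annotated genes carry the symbol Aldoa, and the tables hold one row for it.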

How the data were processed

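RNA of sorted LT-HSCs was sequenced in 8 libraries, 2 in each of 4 groups. Per the labels' protocols, total RNA was isolated with a Qiagen AllPrep micro kit and libraries were made with a Takara low-input total RNA kit. For tools, the submitters' processing notes list mm10 as the build and Trim Galore, STAR, featureCounts and DESeq2, with neither version nor role. The deposited tables hold the authors' raw count and TPM values for 24421 gene symbols. The annotation, strand setting and handling of multiply mapped reads are not given in the sources used here, so that reads of near-identical or overlapping genes are of uncertain assignment.

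The deposited counts of all 8 libraries entered edgeR 4.0.16 (R 4.3.3): filterByExpr (minimum count 10, which left 15917 genes), TMM scaling and the quasi-likelihood test on 4 group means with 4 residual degrees of freedom. P-values were adjusted by Benjamini-Hochberg over all tested genes at a threshold of 0.05. Sex was tested with replicate added to the 4 means. P-values measure the spread between pools, which in the fit without a block includes the difference between the male and the female pool. SE was computed back from the F statistic, and intervals are 95%. TPM values were used for levels between genes. The test was also run on simulated counts, which held no difference between sexes or replicates and the same spread for every gene. They therefore do not check the test under the replicate differences of these data.

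Replicate numbers pair the libraries: each number is of 1 sex in every group, and the replicate differences of the 6 pairs of groups correlated across genes with r of 0.13 to 0.3. Fits with the replicate number as a block (3 residual degrees of freedom) or genotype and replicate number as 4 blocks (2) were therefore run. Other alternatives were DESeq2 1.42.0, RLE size factors, no filter, limma 3.58.1 on log2(TPM + 1) and log2(TPM + 0.1), and leaving out each library in turn.

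The 10 enzymes, the lists and the tests were chosen with earlier results of these data known. Named were all 10 enzymes, every gene of the other pathway lists past the threshold in the Vwf or sex comparison, otherwise the 3 of each list with the smallest p in the Vwf comparison, isozymes for their level and the 5 genes nearest in profile. Marker genes were named for the libraries, and Hif1a as a known regulator of glycolytic genes. Promoters are RefSeq's on GRCm38.p6, and gene coordinates those of GENCODE M21. Protein sequences were not analysed here.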

Additional observations from a re-analysis of the deposited data

How the results depend on the processing

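The directions of the 10 enzymes did not reverse where an enzyme was called, under any alternative run, and the alternatives mostly changed which side of the threshold a value fell on. Between Vwf+ and Vwf- cells averaged over genotype, limma on log2(TPM + 1) and on log2(TPM + 0.1) called 0 enzymes each instead of 2, with Hk2 at adjusted p of 0.12 and 0.11 and Pfkp at 0.086 and 0.087, and leaving out 1 library gave 0 to 3. In WT cells the replicate block and the 4 blocks called 3 enzymes and the fit with no filter 2, instead of 0. In Dnmt3a+/- cells they called 1, 3 and 1. Between the sexes, DESeq2 and the fit with no filter called 7 enzymes instead of 4, both limma fits 0, and leaving out 1 library 2 to 7. RLE size factors left each of these counts within 1.5 times.

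Over all genes, the Vwf comparison called 866, and 2132 with the replicate block, 2754 with 4 blocks, 1354 by DESeq2, 1649 with no filter, 563 and 502 by limma with pseudocounts 1 and 0.1, and 472 (without the Vwf- WT female library) to 1387 (without the Vwf- Dnmt3a+/- male library) when 1 was left out. In WT cells these were 314, then 1329, 1872, 727, 1059, 103, 83 and 64 to 639, and in Dnmt3a+/- cells 169, then 855, 1257, 476, 633, 89, 71 and 75 to 291. Genotype, 0 averaged over fractions, became 30 with the replicate block, 15 by DESeq2, 61 with no filter and 0 to 3 with 1 library left out. In Vwf+ cells it became 6, 3 and 53, and 2 by limma with pseudocount 0.1, and in Vwf- cells 2, 2 and 27. The interaction called 24 genes with no filter. The sex comparison called 1677 genes, 287 and 360 by limma, and 713 (without the Vwf- Dnmt3a+/- female library) to 2922 (without the Vwf+ WT male library) with 1 left out. No block could be added to the sex comparison, since replicate and sex are the same. The cause of these changes was not tested.

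With 2 pools in a group, differences of the size of those for Hk2, Pfkp and Ldha did not pass within a genotype in the filtered edgeR fit without the block. Where one library was left out, its partner was assumed to vary like the other groups.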
